A study of Mus musculus with 6 samples.

Results

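The interferon-inducible GTPases of lung endothelial cells (EC) were examined gene by gene in infant and young adult mice. The 10 members were taken by gene symbol from the table of transcript levels and made up 10 of its 12623 genes and 12 of its 17241 transcript rows. 5 of them are immunity-related GTPases (IRG), namely Irgm1, Irgm2, Igtp, Iigp1 and Gm4951. The other 5 are guanylate-binding proteins (GBP), namely Gbp2, Gbp3, Gbp6, Gbp7 and Gbp9. RNA-seq of 6 libraries was available, 3 from infant and 3 from young adult C57BL/6N mice, and the labels name no treatment or modified allele for either group. The series states that the replicates were independent biological samples. By the study's methods, the lungs of female mice were digested with collagenase, living CD31+CD34+ cells without PTPRC, LYVE1, LY76 and PDPN were sorted, and their RNA was amplified from small inputs. Levels are RPKM, the reads of a transcript scaled to its length and to all mapped reads of the library, which allows levels to be set side by side between genes. Abundant transcripts shift all others in a library, and globin took 2.53% to 18.6% of the RPKM total in infant and 0.223% to 0.354% in young adult libraries.

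IRG and GBP are GTP-hydrolysing proteins that many cell types make after contact with interferons and that act inside the cell against bacteria and protozoa living in vacuoles. Among IRG, Irgm1, Irgm2 and Igtp belong to the GMS class, named after residues of the GTP-binding loop, which sits on membranes of the cell and holds the GKS class inactive. GKS proteins such as Iigp1 coat and break pathogen vacuoles, while GBP, relatives of the dynamins, assemble on vacuoles and bacteria and feed into inflammasome signalling. Interferon receptors signal through JAK kinases to STAT transcription factors, and their target genes carry 2 kinds of DNA element, GAS sites bound by STAT dimers and ISRE sites bound by IRF proteins or by complexes of STAT proteins with IRF9.

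The promoters of the members are shown first, since these elements are how the family is known to be switched on. RefSeq promoter windows (GRCm38.p6, 250 bases before to 50 bases after the annotated start) were given for 6 members. The GAS letters searched were TTCNNNGAA. The letters of the ISRE core were GAAA, any 2 bases and GAAA again, read on either strand. Of all 32851 promoter windows, 3.44% held the ISRE core, 8.3% held a GAS and 0.454% held both. All 6 members with a window held the ISRE core, and 3 of them (Irgm2, Igtp and Gbp7) also held a GAS. The 120 bases before the start of the 3 GMS genes are printed 5′ to 3′ on the gene's own strand, with all letters of a matched element in capitals. They lie at chr11:48871421-48871540 (minus strand) for Irgm1, at chr11:58199436-58199555 (plus strand) for Igtp and at chr11:58214857-58214976 (plus strand) for Irgm2.
Irgm1: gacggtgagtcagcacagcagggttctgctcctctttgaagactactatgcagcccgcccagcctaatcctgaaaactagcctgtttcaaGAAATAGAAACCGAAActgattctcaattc
Igtp: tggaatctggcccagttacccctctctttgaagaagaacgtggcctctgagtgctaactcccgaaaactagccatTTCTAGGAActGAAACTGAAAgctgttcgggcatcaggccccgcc
Irgm2: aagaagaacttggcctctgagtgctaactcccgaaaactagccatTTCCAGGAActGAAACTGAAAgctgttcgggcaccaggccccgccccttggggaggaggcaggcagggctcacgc
In Igtp the GAS lay at -45 to -37 and the ISRE core at -34 to -25, counted from the start. In Irgm2 they lay at -75 to -67 and at -64 to -55. Igtp and Irgm2 are neighbouring gene copies, and with their elements set on top of each other 184 of 270 aligned bases of the windows were identical (68.1%). Irgm1 had no GAS in its window, and its 2 ISRE cores, at -30 to -21 and at -24 to -15, overlapped.

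A GAS followed after 2 bases by an ISRE core on the gene strand was present in 5 of the 32851 windows (0.0152%), and all 5 belonged to genes of the IRG family on chromosome 11. This arrangement was looked for after it had been seen in Igtp and Irgm2. The 21 bases of each are set side by side, with the fixed letters of both elements in capitals, because they show where the copies differ.
Igtp: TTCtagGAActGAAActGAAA
Irgm2: TTCcagGAActGAAActGAAA
Tgtp1: TTCcagGAAtcGAAActGAAA
Tgtp2: TTCcagGAAtcGAAAccGAAA
Gm12185: TTCcagGAAtaGAAAgtGAAA
Among these copies the free bases of the GAS differ in Igtp alone, and the spacer and the free bases of the ISRE core vary. They are related genes, so these are not independent occurrences.

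The 3 GBP members with a window lie in 1 cluster on chromosome 3, and their ISRE cores were on the opposite strand. The printed bases lie at chr3:142530216-142530335 for Gbp7, chr3:142559924-142560043 for Gbp3 and chr3:142620543-142620662 for Gbp2, all on the plus strand and with matched elements in capitals.
Gbp7: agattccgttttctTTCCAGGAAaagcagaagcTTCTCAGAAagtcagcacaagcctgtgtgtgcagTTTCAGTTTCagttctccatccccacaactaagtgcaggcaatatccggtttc
Gbp3: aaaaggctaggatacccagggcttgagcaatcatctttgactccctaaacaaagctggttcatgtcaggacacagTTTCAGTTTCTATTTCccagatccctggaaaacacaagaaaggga
Gbp2: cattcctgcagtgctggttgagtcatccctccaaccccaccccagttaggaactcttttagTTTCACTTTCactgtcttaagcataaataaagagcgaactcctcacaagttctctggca
Gbp7 held its ISRE core at -53 to -44 and GAS at -106 to -98 and at -87 to -79. Gbp2 held 1 ISRE core, at -59 to -50. Gbp3 held 2 overlapping cores, at -45 to -36 and at -39 to -30, and a second annotated start of Gbp3 held none. Of 11 windows of other genes of the family, 7 held an ISRE core and 5 a GAS. A match of letters is a description of the window and no measure of binding.

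**Figure D1:**
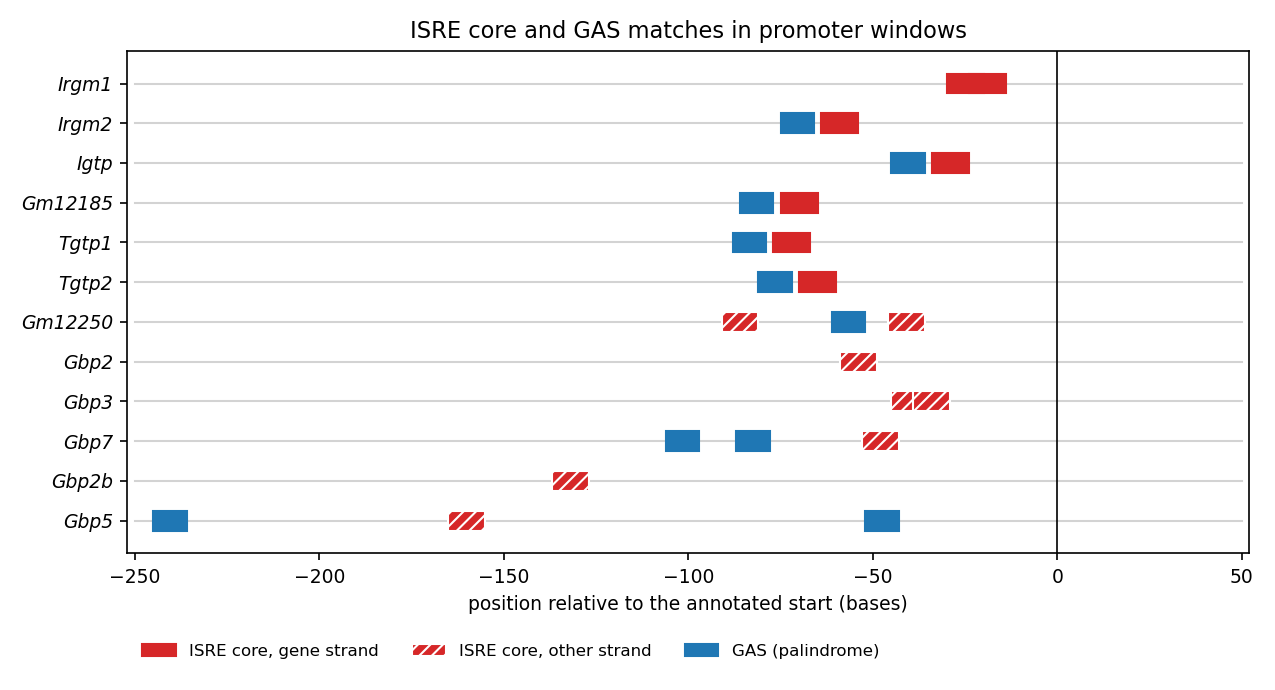
Position of ISRE core matches (red, hatched when on the opposite strand) and GAS matches (blue) relative to the annotated start, in bases, for the 12 measured family genes with at least 1 match. In Irgm2, Igtp, Gm12185, Tgtp1 and Tgtp2 a GAS stands 2 bases before an ISRE core. The ISRE cores of the GBP and of the IRG gene Gm12250 lie on the opposite strand.

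All 10 members had higher transcript levels in young adult than in infant EC. Genes were tested with limma on log2(RPKM + 1), and called genes had an adjusted p under 0.05 and a log2 fold change beyond 0.81 in either direction, the study's fold threshold. 10 of 10 members were called higher, where 3.33% of the 12458 genes tested were called higher, and 0 of 10 were called lower, where 8.1% of genes were. The number of genes called lower, 1009, depended on the libraries. Leaving out infant replicate 1 or 3 gave 615 each, and leaving out infant replicate 2 gave 1308. Leaving out young adult replicate 1 gave 514, replicate 2 gave 551 and replicate 3 gave 843, while 10 members were called higher each time. In 10 of 10 members the lowest young adult library lay above the highest infant library, which held for 16.4% of all genes tested. The members were chosen with earlier results of these data known, so these counts describe them and are no test of the family. The median log2 fold change of the members was 1.94, against -0.07 over all genes tested. All fold changes are young adult over infant on the log2(RPKM + 1) scale, which understates changes of weakly expressed genes.

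Irgm1, the GMS protein best known for its part in resistance to mycobacteria and in autophagy, was the most abundant IRG member in infant EC. Its level was 25.6, 37.8 and 22.2 RPKM in infant replicates 1 to 3, against 77.5, 55.0 and 79.8 RPKM in young adult replicates 1, 2 and 3. Infant replicate 2 was the highest infant library and young adult replicate 2 the lowest young adult library, still 1.46 times apart, the narrowest gap among the members. The means were 28.5 ± 8.20 and 70.8 ± 13.7 RPKM (SD, n = 3 each), and the log2 fold change was 1.30 ± 0.22 (SE) with an adjusted p of 0.00715.

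Irgm2, a second GMS regulator, had 8.3, 14.2 and 7.0 RPKM in the infant libraries and 53.3, 34.9 and 60.8 RPKM in the young adult libraries. The rise was steeper than a doubling in every combination of an infant and a young adult library, and its log2 fold change was 2.25 ± 0.28 (SE) with an adjusted p of 0.00246. Igtp, also named Irgm3, had 8.1, 14.4 and 8.2 RPKM in the infant libraries, against 67.5, 43.7 and 91.4 RPKM in the young adult ones. Its mean of 10.2 ± 3.61 RPKM in infant EC stood against 67.5 ± 23.9 RPKM in young adult EC (SD, n = 3 each). The young adult libraries of Igtp spread widely, with replicate 3 more than double replicate 2, but stayed clear of the infant libraries. The log2 fold change of Igtp was 2.59 ± 0.29 (SE), with an adjusted p of 0.00197. Irgm2 and Igtp shared few stretches of sequence as long as a read. 1.93% of the 100-base stretches of the Irgm2 transcript occurred in another gene's transcript, and 5.67% of those of Igtp.

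Iigp1, the GKS effector that loads onto the vacuole of Toxoplasma, departed from the other members in the infant group. It had 22.7, 18.4 and 19.4 RPKM in infant replicates 1 to 3, so that infant replicate 2 was the lowest library and not the highest. The young adult libraries had 88.6, 52.5 and 74.1 RPKM, and the groups were far apart. The means were 20.2 ± 2.25 and 71.7 ± 18.2 RPKM (SD, n = 3 each), with a log2 fold change of 1.754 ± 0.19 (SE) and an adjusted p of 0.00157. A second transcript row of Iigp1 ran from 17.6 to 21.5 RPKM in the infant libraries, against from 50.2 to 84.5 RPKM in the young adult ones.

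Gm4951, an IRG gene located near Iigp1, was close to the detection limit of the table in infant EC and well expressed in young adult EC. Its infant libraries had 0.4, 1.1 and 0.5 RPKM, where the table is rounded to steps of 0.1. The young adult libraries had 15.8, 10.4 and 16.9 RPKM, and the lowest of them was 9.45 times the highest infant library, the widest gap among the members. The ratio of mean RPKM was 21.6, while the fitted log2 fold change was 3.20 ± 0.22 (SE), with an adjusted p of 0.000424. By level, Gm4951 stood at percentile 2.40 of all genes of the table in infant EC and at percentile 72.7 in young adult EC.

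Among the GBP, Gbp2, a lipid-anchored protein that gathers on pathogen vacuoles, had the second largest rise. It had 12.5, 21.7 and 11.5 RPKM in the infant libraries, against 63.1, 65.9 and 73.3 RPKM in the young adult ones. The young adult replicates were close together, and replicate 2, which was the lowest for most members, was not the lowest for Gbp2. The means were 15.2 ± 5.62 and 67.4 ± 5.27 RPKM (SD, n = 3 each), with a log2 fold change of 2.13 ± 0.22 (SE) and an adjusted p of 0.00138. Gbp3, from the same cluster, had 14.0, 22.8 and 12.8 RPKM in the infant libraries, against 38.3, 38.6 and 45.7 RPKM in the young adult ones. Gbp3 thus started near Gbp2 in infant EC and ended lower, with a log2 fold change of 1.29 ± 0.20 (SE) and an adjusted p of 0.00556.

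Gbp7, which has been tied to the assembly of the phagocyte oxidase, had 20.2, 28.6 and 19.6 RPKM in the infant libraries, against 66.8, 54.5 and 69.9 RPKM in the young adult ones. Its 2 transcript rows differed by at most 0.2 RPKM in any library. The log2 fold change was 1.46 ± 0.17 (SE), with an adjusted p of 0.00197. Gbp9 was the most abundant GBP member in infant EC, with 25.1, 32.0 and 22.7 RPKM, and had 57.5, 48.0 and 57.3 RPKM in young adult EC. It rose least of all members, from 26.6 ± 4.83 to 54.3 ± 5.43 RPKM (SD, n = 3 each), and the log2 fold change was 1.01 ± 0.14 (SE) with an adjusted p of 0.00427.

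Gbp6 had 5.2, 11.5 and 4.5 RPKM in the infant libraries, against 35.1, 24.7 and 48.3 RPKM in the young adult ones. The groups were well apart, and its log2 fold change was 2.25 ± 0.34 (SE), with an adjusted p of 0.00495. This level is uncertain. Among GENCODE transcripts, 82.9% of the 100-base stretches of the Gbp6 transcript also occurred in Gm43302 and 44.2% in Gbp10. The levels were made with RefSeq genes, so how many reads this affects was not tested. The share found in any other gene was 10.2% for Gbp7 (9.76% in Gm43802), 2.01% for Gbp9 and 0.949% for Gbp3. Irgm1, Iigp1, Gm4951 and Gbp2 had 0 shared stretches.

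**Figure D2:**
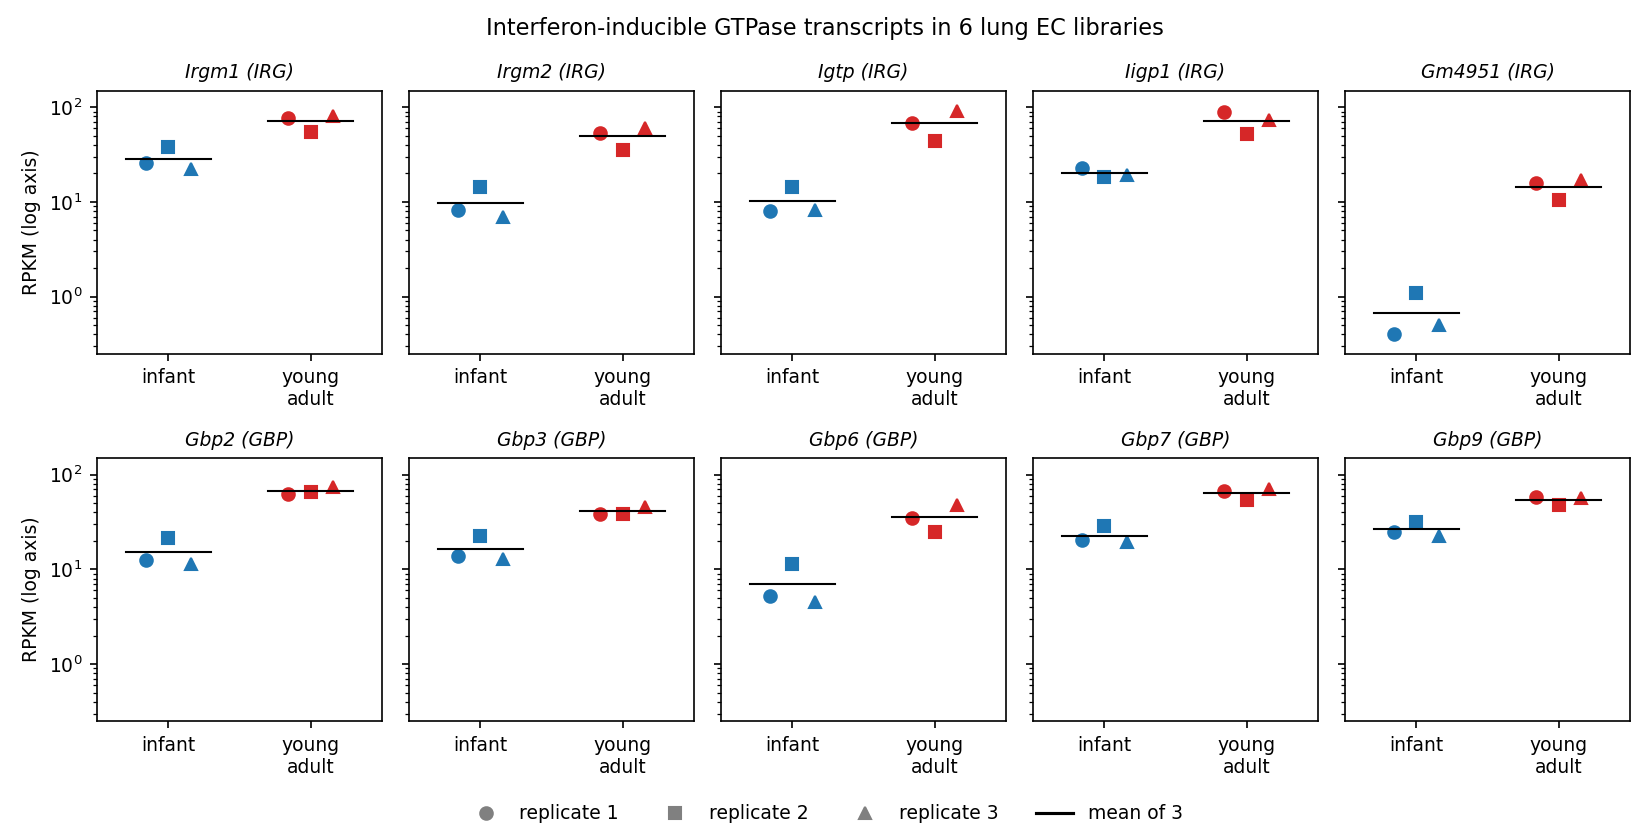
RPKM on a log axis of the 10 members in the 3 infant (blue) and 3 young adult (red) libraries, with symbols for the replicate number and a bar for the mean. All young adult libraries lie above all infant libraries for every member, infant replicate 2 is the highest infant library for all members but Iigp1, and Gm4951 starts from 0.4 to 1.1 RPKM.

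The mean of the most abundant member was 42.8 times that of the least abundant in infant EC and 4.99 times in young adult EC. The least abundant was Gm4951 in both, and without it the ratios were 4.04 and 1.99. Summed over the 10 members, the level was 142.1, 202.5 and 128.4 RPKM in the infant libraries, against 563.5, 428.2 and 617.5 RPKM in the young adult ones. This corresponded to 0.0300% to 0.0533% of all RPKM in the infant libraries, against to 0.113% to 0.154% in young adult libraries. The summed IRG members were 3.95 times as high in young adult EC and the summed GBP members 2.97 times. The fitted log2 fold changes had a median of 2.25 over the 5 IRG and of 1.46 over the 5 GBP, and the ranges of both classes overlapped.

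GMS regulators and GKS effectors are thought to work in balance, so their ratio was formed per library. The log2 ratio of the summed RPKM of Irgm1, Irgm2 and Igtp over that of Iigp1 and Gm4951 was 0.862, 1.77 and 0.910 in infant and 0.926, 1.09 and 1.35 in young adult libraries. The groups overlapped, with means of 1.18 ± 0.509 and 1.12 ± 0.214 (SD, n = 3 each). Without infant replicate 2 the difference of -0.06 turned to 0.23, and without young adult replicate 1 it turned to 0.04. Tgtp1, Tgtp2, Ifi47 and Gm12250 were then added to the GKS side, a choice made after the values were seen. The log2 ratio was -1.04, -1.12 and -1.19 in infant and -1.55, -1.35 and -1.46 in young adult libraries, and the groups did not overlap. This ratio is uncertain, since Tgtp1 and Tgtp2 had the highest means on that side. Of their 100-base stretches, 80.0% of those of Tgtp1 occurred in Tgtp2 and 80.4% of those of Tgtp2 in Tgtp1.

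Within an age group the members moved together from library to library. Infant replicate 2 was the highest infant library for 9 of 10 members, where it was the highest for 37.3% of the genes tested. Young adult replicate 2 was the lowest young adult library for 8 of 10 members, Gbp2 and Gbp3 being the exceptions, where it was the lowest for 34.0% of the genes tested. Without infant replicate 2 the ratio of the summed level between the ages was 3.97 instead of 3.40.

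The wider family showed the same direction. Of 21 further family genes listed, 17 were tested, 14 were called higher and 0 lower. Beside this, 3.33% of all genes tested were called higher and 8.1% lower. The median log2 fold change of the 17 family genes was 1.49. Tgtp2, a GKS protein also known as Irgb6, was the most abundant IRG family transcript in young adult EC. It had 29.8, 59.6 and 30.2 RPKM in the infant libraries, against 226.5, 122.1 and 257.1 RPKM in the young adult ones, a log2 fold change of 2.32 ± 0.34 (SE) with an adjusted p of 0.00461. Its near copy Tgtp1 changed by 2.31, and over 80% of the read-length stretches of either gene were shared (83.3% for Tgtp1 and 80.4% for Tgtp2), so that their levels are uncertain. Ifi47, also named Irgd, had 12.3, 22.3 and 13.3 RPKM in the infant libraries, against 81.6, 63.2 and 86.3 RPKM in the young adult ones, with a log2 fold change of 2.24 ± 0.22 (SE) and an adjusted p of 0.00132. Gm12250, also named Irgb10, a GKS protein that acts on bacterial membranes, had 0.4, 0.3 and 0.2 RPKM in the infant libraries, against 8.4, 6.1 and 19.2 RPKM in the young adult ones. As for Gm4951, a transcript near the detection limit of infant EC was clearly present in young adult EC, with a log2 fold change of 3.09 ± 0.34 (SE) and an adjusted p of 0.00175.

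The other family genes called higher were Gvin1 (log2 fold change 2.57), Gbp10 (2.13), Gbp8 (1.72), Gbp4 (1.57), Gm12185 (1.49), Gbp11 (1.22), F830016B08Rik (1.21), Gbp5 (1.20), Mx2 (1.005) and Gm5431 (0.87). 70.9% of the read-length stretches of Gbp10 and 97.7% of those of Gvin1 also occurred in other genes, mainly Gm43302 (70.0%) and Gm4070 (96.6%). 3 family genes were not called. 9930111J21Rik2 was among the more abundant, with 34.3, 40.7 and 30.1 RPKM in the infant libraries, against 72.0, 55.1 and 55.0 RPKM in the young adult ones. Its log2 fold change of 0.77 stayed under the fold threshold although its adjusted p was 0.0123. This level is uncertain, since 40.3% of its read-length stretches also occurred in 9930111J21Rik1. That share was counted on a transcript not matched to its RefSeq row. Gbp2b, the gene for mouse Gbp1, reached at most 1.3 RPKM in any library and had a log2 fold change of 0.66 with an adjusted p of 0.0234. Irgq, a family member that is not known as an interferon target, had a log2 fold change of -0.36 with an adjusted p of 0.0734. The transcript levels of Gm4841, 9930111J21Rik1, Irgc1 and Mx1 were not analysed here.

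**Figure D3:**
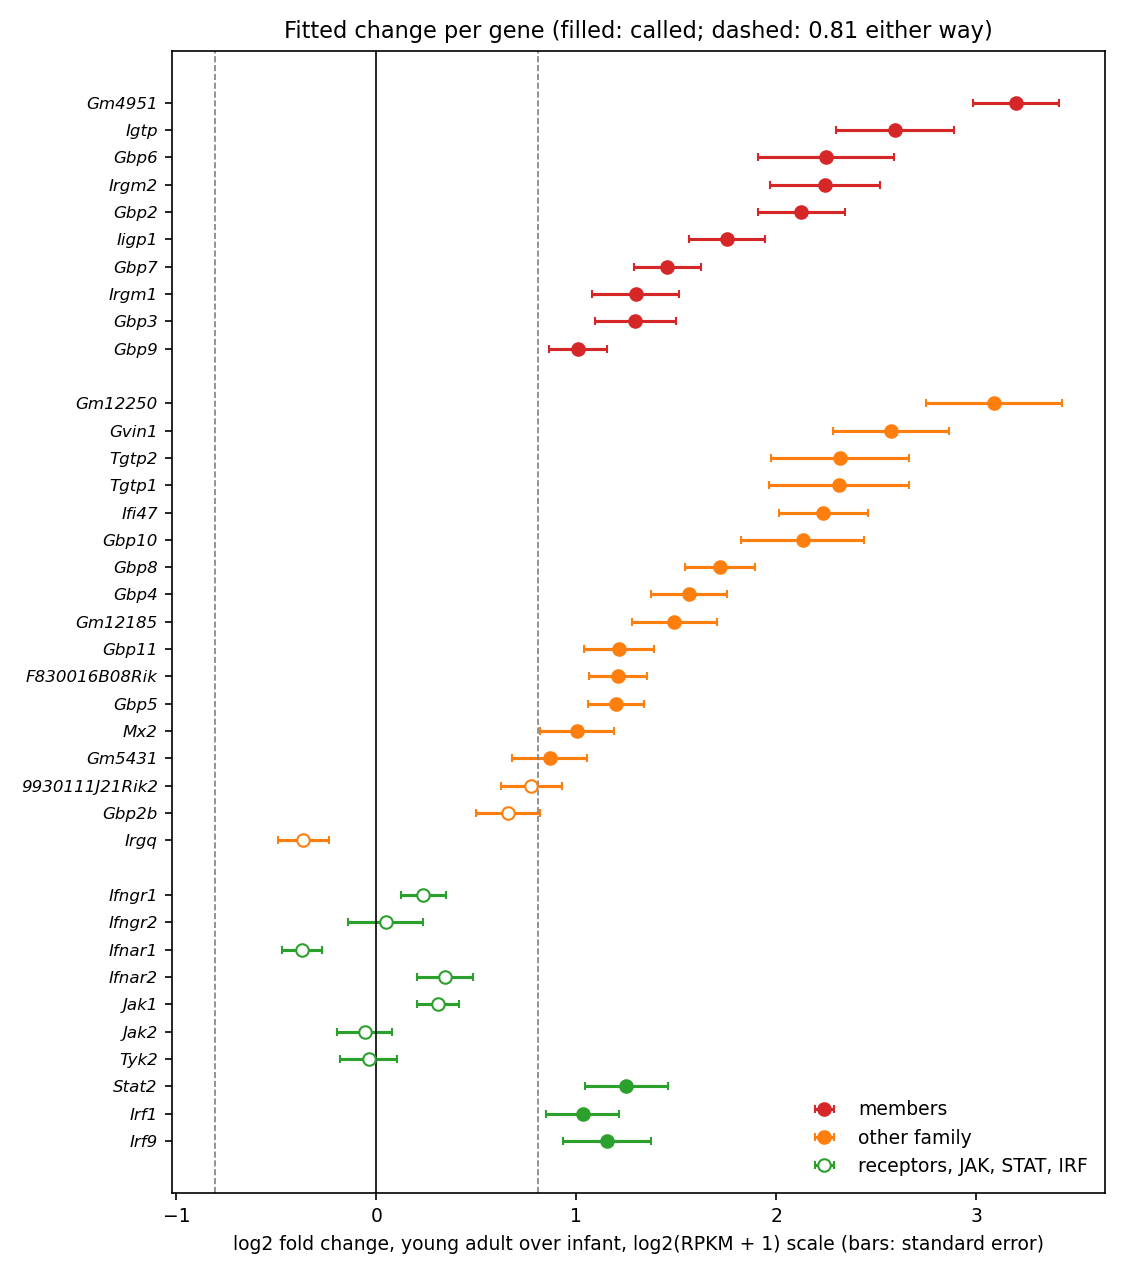
Fitted log2 fold change, young adult over infant, with its standard error for the 10 members (red), 17 other family genes (orange) and interferon receptors, JAK kinases, STAT and IRF genes (green), where filled points were called and dashed lines mark 0.81 in either direction. The members span 1.01 to 3.20, and the 4 receptor and 3 JAK kinase genes plotted lie between -0.37 and 0.34 and are all open points.

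Family genes lie in clusters of neighbouring copies, which allowed a comparison with the unrelated genes beside them. Chromosome 3 (142496934 to 142638008) holds Gbp5, Gbp7, Gbp3, Gbp2b and Gbp2, of which 4 of 5 were called higher. The gene of Gbp7 starts at 142530336, that of Gbp3 at 142560016 and that of Gbp2 at 142620663. Chromosome 5 (105012513 to 105346476) holds 6 tested GBP, all 6 called, with Gbp9 at 105076464 to 105110357 and Gbp6 at 105270702 to 105295871. On chromosome 11, 6 of 7 were called in the cluster of Irgm1 (48865245 to 49096987) and 3 of 3 in that of Igtp and Irgm2 (58183843 to 58222783). On chromosome 18 (60212004 to 60392634), Gm4951, F830016B08Rik and Iigp1 were all called. Positions (GRCm38.p6, RefSeq) span whole genes with their introns.

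Of the 22 other tested genes within 200 kb of these clusters, 2 were called higher and 0 lower, beside 3.33% higher and 8.1% lower over all genes tested. Their median log2 fold change was 0.19, against -0.07 over all genes. The 2, named after their values were seen, were Abcg3 (1.28) beside the cluster on chromosome 5 and Olfr56 (0.91) beside Ifi47. 0.566% of the 100-base stretches of Ifi47 also occurred in Olfr56. The medians of the family genes in the 5 clusters ran from 1.29 to 2.59.

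**Figure D4:**
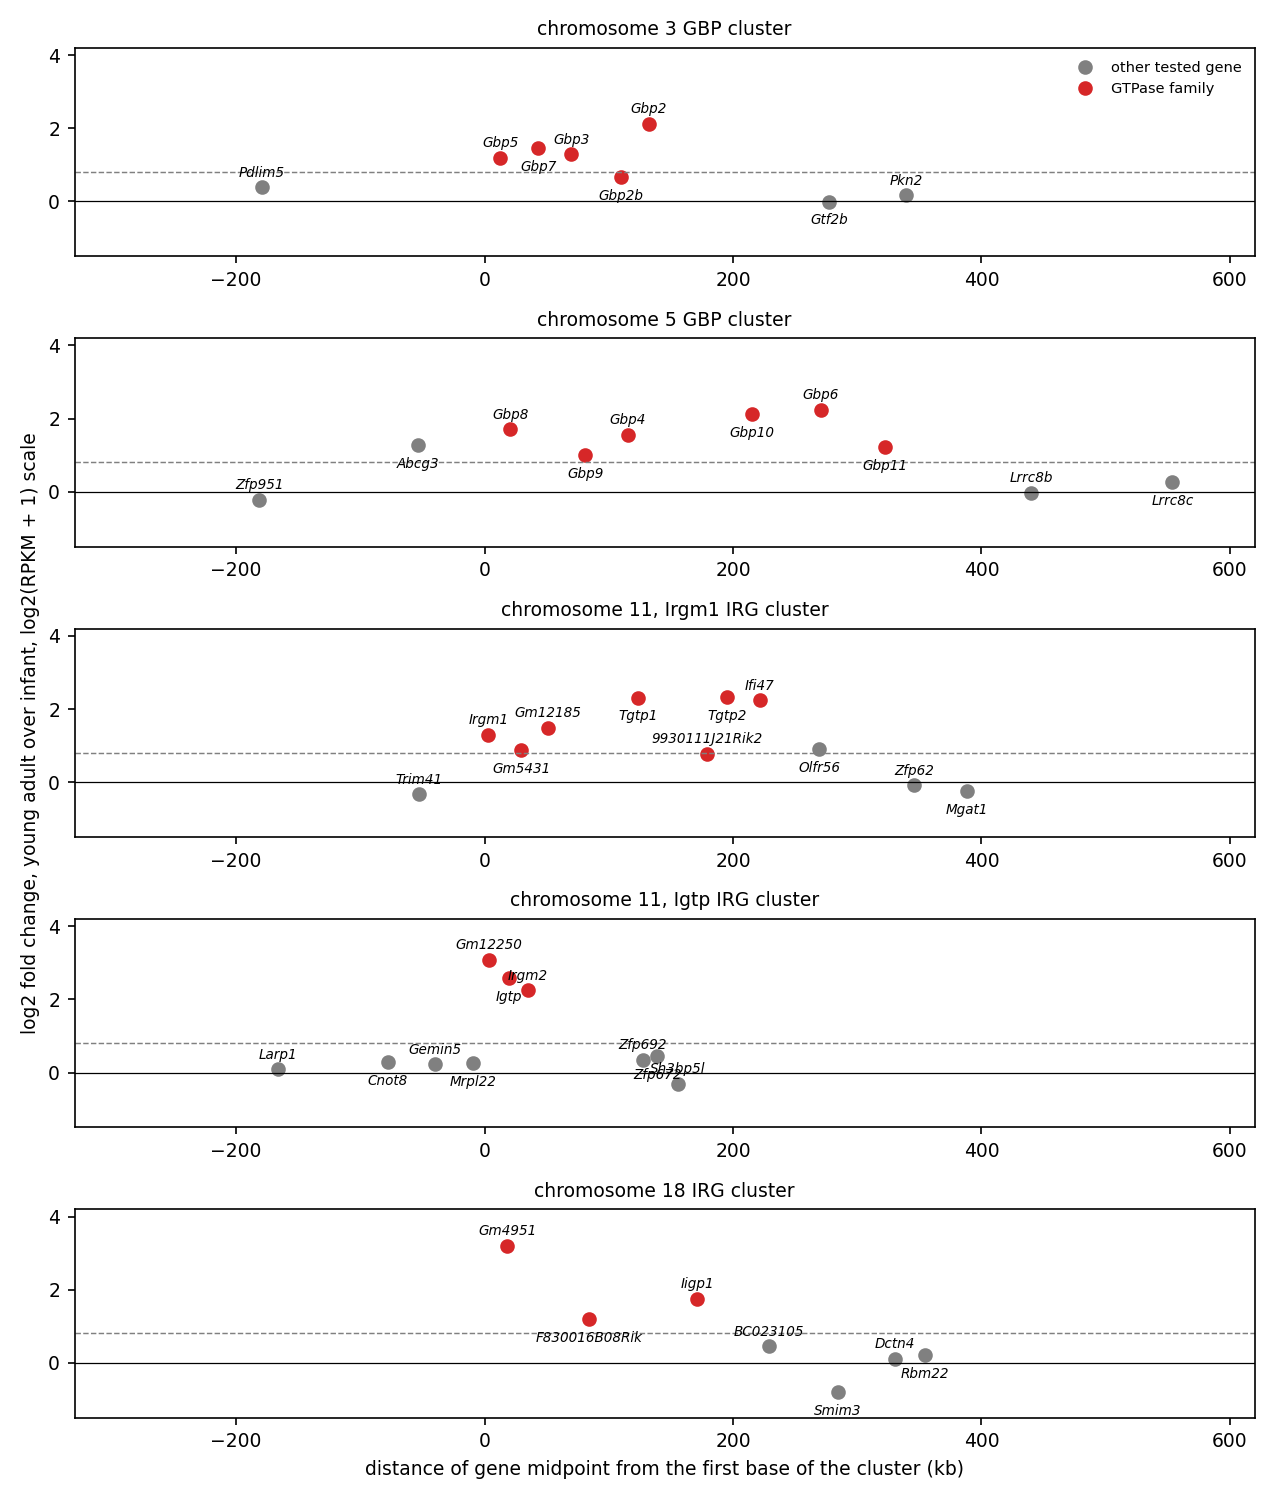
Log2 fold change, young adult over infant, of family genes (red) and other tested genes (grey) against the distance of the gene's midpoint from the first base of the cluster in kb, for the 5 clusters, with a dashed line at 0.81. Red points stand above the grey ones in each cluster, apart from Abcg3 and Olfr56, which lie among the family genes.

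The interferon pathway was followed from ligand to nucleus. Of 12 ligand genes listed, Il18 alone was tested and was not called (log2 fold change -0.996, adjusted p 0.0704); the interferon genes themselves were not analysed here. None of the 5 receptor genes tested was called. Ifngr1, which binds interferon gamma, had 89.0, 100.2 and 89.0 RPKM in the infant libraries, against 107.7, 118.8 and 101.4 RPKM in the young adult ones, with a log2 fold change of 0.23 ± 0.11 (SE) and an adjusted p of 0.161. Its partner Ifngr2 had a log2 fold change of 0.05, and the type I receptor genes Ifnar1 and Ifnar2 had -0.37 and 0.34. Il10rb, a subunit of the interferon lambda receptor, had 0.43. Ifnar1 had an adjusted p of 0.0334 but stayed under the fold threshold. The kinase genes Jak1 (0.31), Jak2 (-0.06) and Tyk2 (-0.04) were not called either.

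Below the receptors, 8 of 15 genes for kinases, STAT, IRF and their cofactors were called higher and 0 lower. Over all genes tested, 3.33% were called higher and 8.1% lower. The median log2 fold change of the 15 genes was 1.03. Irf1, which drives many GBP, was abundant at both ages, with 85.0, 113.6 and 80.5 RPKM in the infant libraries, against 204.7, 153.9 and 214.4 RPKM in the young adult ones, a log2 fold change of 1.03 ± 0.18 (SE) and an adjusted p of 0.00864. Infant replicate 2 was again the highest infant library and young adult replicate 2 the lowest young adult library, as for most GTPases.

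Stat2 (1.25) and Irf9 (1.15), which bind ISRE sites as parts of 1 complex, were called higher, as was Irf7 (1.23). The largest log2 fold changes of the list were those of Nlrc5 (2.34) and Ciita (1.82), the transactivators of MHC class I and class II genes, and of Batf2 (1.69). Of 9 negative regulators tested, Usp18 (1.88) and Isg15 (1.69), themselves interferon targets that damp type I signalling, were called higher, and the phosphatase gene Ptpn6, which is mainly known from blood cells, was called lower (-1.21).

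The genes of proteins that IRG and GBP are known to work with were listed with 13 tested genes of the dynamin superfamily, relatives of GBP. Together, these partner genes were called about as often as genes in general. Of 49 partner genes tested, 3 were called higher and 2 lower, beside 3.33% higher and 8.1% lower over all genes tested. Their median log2 fold change was 0.07. None of 12 genes of the LC3 conjugation machinery, which helps to target IRG and GBP to vacuoles, and none of 6 genes for enzymes of protein prenylation, which anchor GBP in membranes, was called. The inflammatory caspase genes Casp4 (1.26) and Casp1 (1.05), which act downstream of GBP, were called higher, though Casp1 reached at most 3.0 RPKM. Lgals3, a galectin that marks damaged vacuoles, was called lower (-1.21). In the dynamin superfamily, Dnm3 (1.13) was called higher and Ehd3 (-0.95) lower of 13 genes tested.

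Genes with the profile most like the members were ranked by Pearson's r with the mean standardised log2(RPKM + 1) of the members, among 6974 genes of at least 5 RPKM on average. The 10 with the highest r were Phf11b, Znfx1, Epn2, Batf2, Rpusd4, Ifi47, Gm4070, Gm2444, Gvin1 and Lysmd2, with r from 0.994 to 0.999 over the 6 libraries. The libraries fall into 2 age groups, so r reflects mainly the difference between the groups. Gm4070 shares transcript sequence with Gvin1.

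The composition of the sorted cells was read from marker genes. The 16 endothelial markers were all tested. Vwf (log2 fold change 2.03) and Tek (1.25) were called higher, 14 were not called, and 3 had log2 fold changes below 0. Pecam1, which encodes CD31, had 309.8, 512.6 and 330.4 RPKM in the infant libraries, against 573.7, 657.8 and 581.2 RPKM in the young adult ones. It was not called (adjusted p 0.0513). The summed level of the 16 markers ran from 3393 to 5067 RPKM in the infant libraries, against from 5643 to 6109 RPKM in the young adult ones. Egfl7 was the largest part of the sum, with means of 1236 RPKM in infant and 1893 RPKM in young adult EC. The sum thus also holds changes of single markers with age. In bulk samples, fewer cells of a type and less RNA per cell cannot be told apart. Relative to this sum, the members made up 3.82%, 3.996% and 3.78% in infant and 9.99%, 7.23% and 10.1% in young adult libraries. The infant libraries, including replicate 2, were level on this scale, and the groups did not overlap. When all genes were rescaled to the endothelial sum, a choice made after the data were seen, 7 of 10 members were called higher. Irgm1 (log2 fold change 0.75), Gbp3 (0.76) and Gbp9 (0.47) then fell under the fold threshold, and the median over all genes moved to -0.54.

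**Figure D5:**
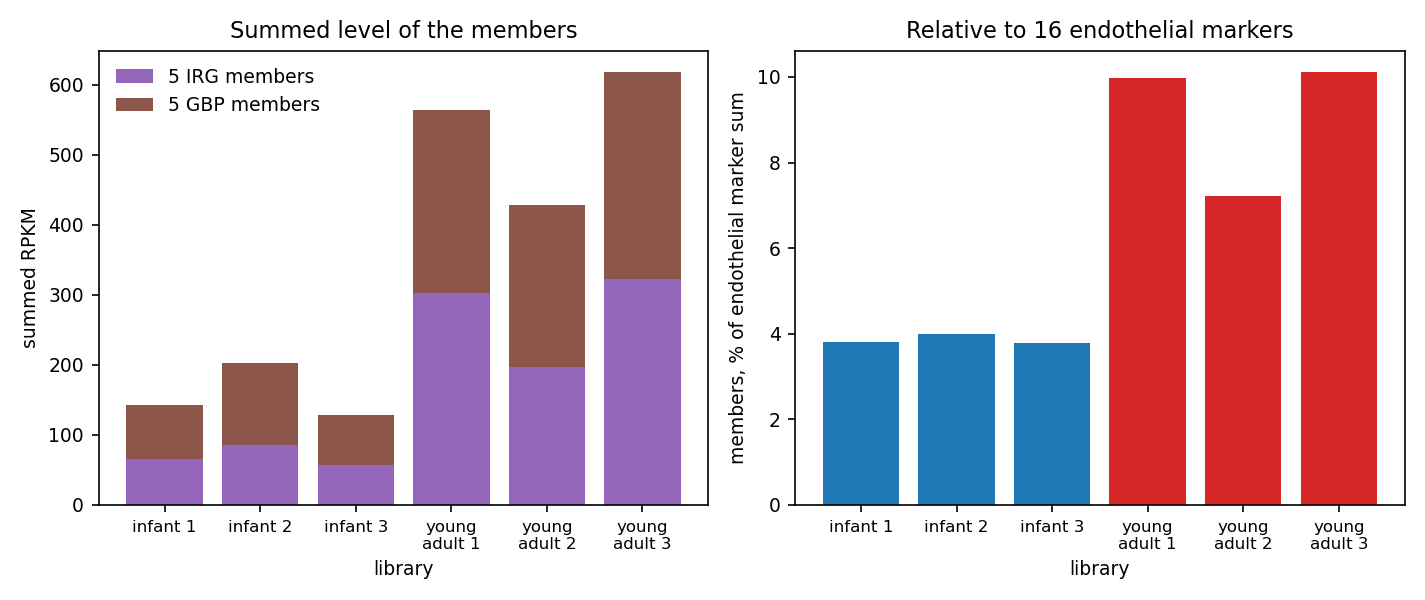
Left, summed RPKM of the 5 IRG (purple) and 5 GBP (brown) members in each library; right, the same sum of all 10 members as a percentage of the summed RPKM of 16 endothelial markers. The members stand at 3.78% to 3.996% of the endothelial sum in infant and at 7.23% to 10.1% in young adult libraries.

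Markers of other cells differed between the age groups, and their part in the result was not tested. The 10 fibroblast markers summed to 333.8 to 1273 RPKM in the infant libraries, against 10.7 to 23.4 RPKM in the young adult ones, with 9 of 10 called lower, and infant replicate 2 had the lowest of the infant sums. The 10 mural markers summed to 79.6 to 249 RPKM and 12.8 to 18.2 RPKM, and the 7 erythroid markers to 9656 to 79864 RPKM and 822 to 1351 RPKM. For epithelial markers the sums were 6490 to 11348 RPKM in the infant libraries, against 1835 to 8370 RPKM in the young adult ones. The 15 leukocyte markers summed to 327.5 to 524.7 RPKM in the infant libraries, against 143.1 to 558.9 RPKM in the young adult ones, with 5 called lower and 0 higher. Most of this sum was Lyz2, and without it the sums were 52.2 to 141.1 RPKM in infant and 8.8 to 43.4 RPKM in young adult EC, with no overlap. S100a8 and Marco were at 0 in young adult replicate 1 and S100a8 and S100a9 in young adult replicate 2, and no leukocyte marker was at 0 elsewhere. Ptprc itself had 4.2, 3.0 and 7.0 RPKM in the infant libraries, against 0.2, 1.0 and 1.8 RPKM in the young adult ones. The 4 lymphatic markers summed to 89.0 to 192.7 RPKM in infant and 268.5 to 411.3 RPKM in young adult EC. Lyve1 was called higher, while the other 3 had log2 fold changes below 0 and were not called, and the median of the 4 was -0.29.

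Y-linked transcripts were present in all infant libraries and at 0 in all young adult libraries, with 20.6, 16.5 and 21.9 RPKM of Ddx3y in infant replicates 1 to 3, although the methods name female mice. Sex composition and age cannot be told apart in these libraries.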

How the data were processed

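RNA-seq libraries of sorted lung EC (3 infant, 3 young adult) were grouped by their titles. The authors aligned the reads of 100 bases to mm10 with STAR, used RefSeq genes and tested with DESeq2; the deposited values are their RPKM per RefSeq transcript, rounded to 0.1. Depth per library is therefore unknown and no counting error was given. A count test could not be run on RPKM, so log2(RPKM + 1) was tested with limma 3.58.1 in R 4.3.3 (lmFit, eBayes with an intensity trend, age as the only term, Benjamini-Hochberg over 12458 genes with at least 1 RPKM in at least 1 library). Calls needed an adjusted p under 0.05 and the fold threshold of the study (0.81 on the log2 scale). Each gene was represented by its transcript row with the highest mean. The limma fit and its calls were tested on simulated data.

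Members and gene lists were chosen with earlier results of these data known. Named were all members, listed family genes, called genes of each pathway list (at most 6), the receptor, JAK, STAT and IRF genes, and the 10 most similar profiles. Shared sequence was counted as 100-base stretches of GENCODE M21 transcripts. Motifs were matched without mismatches. Protein sequences were not used here, and the planned comparison of protein features was not run. 1 gene of the pathway lists is not reported here.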

Additional observations from a re-analysis of the deposited data

How the results depend on the processing

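Over 21 alternatives, 202 of 210 member values kept their direction and their side of the thresholds, 8 kept the direction only and 0 reversed. With limma's treat, which tests against the fold threshold itself, 5 of 10 members, 4 other family genes (14 as reported), 1 interferon pathway gene (11) and 0 partner genes (5) were called; Irgm1, Gbp3, Gbp6, Gbp7 and Gbp9 were the members lost. The other 3 member values were lost by rescaling to the endothelial markers, where the member median was 1.40 (1.94 as reported). With a pseudocount of 5, 8 other family and 0 partner genes were called. Partner genes called were 9 with median centring and 8 with array weights.

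Leaving out 1 library at a time gave member medians of 1.85 to 2.05, 10 members called each time, 7 interferon pathway genes at the fewest (without young adult replicate 1) and a GMS to GKS difference of -0.22 to 0.23. The all-gene median of -0.07 moved to 0.04 with quantile normalization, 0.05 with median centring, -0.19 without globin genes and -0.54 with endothelial rescaling, and the share of higher among called genes from 29.1% to 46.5%, 40.7%, 20.3% and 5.55%. The member median stood 1.86 to 2.01 above the all-gene median in each of these.

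With a replicate block, 10 members were called (largest adjusted p 0.0269), their median was 1.94, and 1371 genes were called instead of 1424. The labels do not say whether libraries with the same replicate number belong together. Correlations of deviations between libraries of the same number were 0.03, -0.11 and -0.02, and 1 of 6 libraries correlated best with its own number. With so few libraries, these values cannot show whether the numbers mark a shared preparation.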
